A study of Homo sapiens with 6 samples.

Results

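ZMAT3, TP53INP1, PHLDA3, TRIAP1, SUSD6, AEN, NINJ1, RNF144B, CYFIP2 and ACER2 are 10 known target genes of the transcription factor p53 that act in signalling and stress responses. They were taken by symbol from a list, and all 10 were found among the 57773 Ensembl gene IDs of the deposited table. The libraries come from RPE1, a human cell line derived from retinal pigment epithelium and immortalised in culture. Of 6 libraries, 3 came from cells exposed for 24 h to Nutlin-3 at 2.5 µM, and 3 from cells exposed for 24 h to its vehicle DMSO. Nutlin-3 is a small molecule that blocks the binding of the ubiquitin ligase MDM2 to p53, and the labels name no other agent or genetic change in either group. Poly(A) RNA was sequenced, and each value is an RPKM, a read count scaled to gene length and library size.

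When p53 is freed from MDM2 it binds response elements in DNA and switches on genes for cell cycle arrest, repair and cell death. The genes described here act in signalling, RNA and stress branches of that response. PHLDA3 restrains the survival kinase AKT at the membrane, ACER2 breaks down ceramide, and ZMAT3 binds RNA. TP53INP1 is a cofactor of p53 and of autophagy, AEN and TRIAP1 act for and against apoptosis, and NINJ1 ruptures the membrane of dying cells. CYFIP2 belongs to an actin-regulating complex, while RNF144B and SUSD6 act in protein turnover.

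The treatment was checked on a pair of well-known targets. CDKN1A, which encodes the cell cycle inhibitor p21, averaged 60.5 ± 2.34 RPKM with Nutlin-3 and 8.36 ± 0.463 RPKM with DMSO (SD, n = 3 each). MDM2 itself averaged 8.46 ± 0.225 RPKM with Nutlin-3 and 2.31 ± 0.0866 RPKM with DMSO. Recovered from the RPKM were 31.6 to 37.0 M reads per Nutlin-3 library and 28.4 to 41.0 M reads per DMSO library. Of the markers looked up, vimentin (VIM) had at least 125214 reads in every library, whereas the pigment epithelium genes RPE65 and TYR had at most 2 and 1 reads, and the endothelial gene CDH5 had 0. The other markers of pigment epithelium and of blood, neural and epithelial cells had between 1 and 44 reads per library. The keratin genes KRT8 and KRT18 were 1.68-fold and 1.74-fold higher with Nutlin-3 (limma adjusted p = 0.000139 and 0.000364), and their part in the results was not tested.

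Promoter sequences are shown for the genes whose start regions held the closest match to a p53 response element, a pair of adjacent copies of the 10-base p53 consensus decamer. RefSeq windows on GRCh38.p14, from 250 bases before to 50 bases after the annotated start, were at hand for 8 of the genes, in 10 windows. The closest match was in the AEN window, where the 20 bases from -34 to -15 relative to the start had 2 mismatches. At most 2 mismatches were found in 0.285% of all 35116 windows of the table. The 250 bases before the AEN start (chr15:88621090-88621339, + strand) follow, with the 20-base match in capitals.
AEN: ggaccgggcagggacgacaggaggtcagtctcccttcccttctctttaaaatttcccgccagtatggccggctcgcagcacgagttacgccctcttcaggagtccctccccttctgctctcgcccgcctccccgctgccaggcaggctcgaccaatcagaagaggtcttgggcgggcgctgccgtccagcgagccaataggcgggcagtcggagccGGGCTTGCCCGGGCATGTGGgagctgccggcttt

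ZMAT3, RNF144B and TRIAP1 held a 20-base match with 4 mismatches, and 4.05% of all windows held one with at most 4. The ZMAT3 match lay from -83 to -64 in the window chr3:179071760-179072059 (- strand), the RNF144B match from -156 to -137 in chr6:18387100-18387399 (+ strand), and the TRIAP1 match from 29 to 48 in chr12:120446335-120446634 (- strand).
ZMAT3: GGGCCTGCTCCGCCAAGCAC
RNF144B: AGACAGGTCCTGACAAGCAG
TRIAP1: AGGCATGCACGGACATGAAG
The pattern reads the same on both strands, and a spacer between the copies was not searched. The windows of CYFIP2, ACER2, NINJ1 and SUSD6 had at least 5 mismatches, which says only that these letters are not in these windows. A match describes the sequence and is no measured binding.

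All 10 genes rose with Nutlin-3, by ratios of mean RPKM between 1.19 for RNF144B and 3.996 for CYFIP2. In each gene all 3 Nutlin-3 libraries lay above all 3 DMSO libraries, as was the case for 25.4% of the 22859 genes tested. The test was limma on log2(RPKM + 0.05), adjusted over all genes tested, and 18.3% of these were called higher with Nutlin-3 and 16.6% lower (34.9% in either direction). With limma voom on reads recovered from the RPKM, all 10 were called higher too, as were 25.9% of the 20728 genes tested that way, while 24.3% were called lower (50.3% in either direction). The median log2 fold change was 0.95 over the 10 genes and 0.00104 over all genes tested. In 5 of the 10 genes the ratio of means was at least 2, which together with a call was reached by 1.23% of all genes tested. In bulk RNA, more cells that express a gene and more RNA per cell cannot be told apart.

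**Figure D1:**
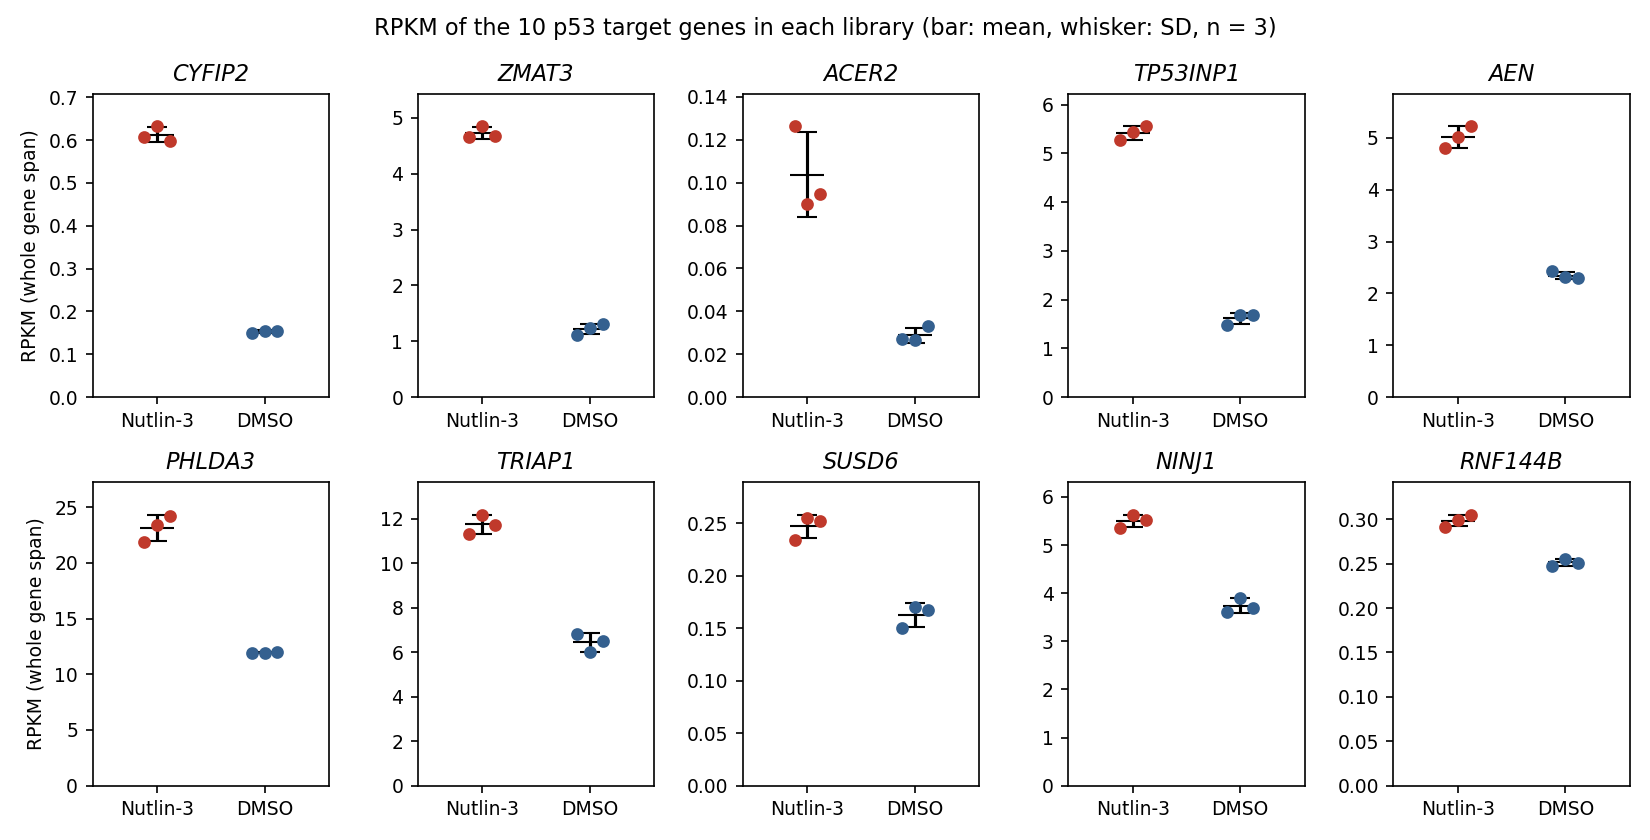
RPKM of each of the 10 genes (vertical axis, from 0, with its own scale per gene) in the 3 Nutlin-3 and the 3 DMSO libraries; points are libraries, the bar is the mean and the whisker the SD. In every panel the Nutlin-3 points lie above the DMSO points, with the widest gap relative to the DMSO level in CYFIP2 and the narrowest in RNF144B.

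PHLDA3 (ENSG00000174307) encodes a small protein with a pleckstrin homology domain that competes with AKT for membrane lipids. It had 21.9, 23.4 and 24.2 RPKM in Nutlin-3 replicates 1 to 3, against 11.87, 11.95 and 12.04 RPKM in DMSO replicates 1 to 3. The DMSO libraries were nearly equal, with an SD of 0.706% of their mean, and the Nutlin-3 libraries stood well above them. The log2 fold change was 0.95 (SE 0.042, limma adjusted p = 0.000165). On the same strand, 19.1% of the PHLDA3 exon length in GENCODE 29 is shared with AC096677.2, so some of its reads may belong to that gene.

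Of 14 listed genes of the PI3K and AKT pathway, on which PHLDA3 bears, 13 were tested, of which 1 was called higher and 3 lower, and their median change was 0.043 (log2). On reads all 14 were tested, with 4 called higher and 5 lower. Over all genes tested, 18.3% were called higher and 16.6% lower, and on reads 25.9% and 24.3%. These shares apply to the list counts below as well. AKT1, a kinase held back by PHLDA3, fell to 4.97 ± 0.0949 RPKM with Nutlin-3, against 6.14 ± 0.170 RPKM with DMSO (log2 fold change -0.30, limma adjusted p = 0.0015). PHLPP1, a phosphatase that switches AKT off, fell to 0.107 ± 0.0016 RPKM, against 0.145 ± 0.00919 RPKM with DMSO (limma adjusted p = 0.024). PIK3R2, a regulatory subunit of PI3K, rose 1.43-fold (limma adjusted p = 0.00284), but 87.3% of its exon length is shared with AC007192.1 on the same strand. The PHLPP1 call was lost without any 1 of Nutlin-3 replicates 1, 2 and 3 and DMSO replicates 2 and 3 (limma adjusted p from 0.0683 to 0.0785), and the count of falls was then 1.

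ACER2 (ENSG00000177076) is the alkaline ceramidase of the Golgi, which turns ceramide into sphingosine. It was the lowest of the genes, with 0.126, 0.0901 and 0.0947 RPKM in Nutlin-3 replicates 1 to 3, against 0.0269, 0.0265 and 0.0329 RPKM in DMSO replicates 1 to 3. These values rest on 172, 139 and 124 reads in the Nutlin-3 libraries and on 49, 34 and 46 reads in the DMSO libraries. Nutlin-3 replicate 1 stood above the other two, and the groups did not overlap. The mean with Nutlin-3 was 3.60 times that with DMSO. The log2(RPKM + 0.05) scale gave a change of 0.96 (SE 0.15, limma adjusted p = 0.00594), because the added 0.05 is larger than the DMSO values. On reads, the change was 1.83 (SE 0.17, limma voom adjusted p = 4.27e-09).

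Of 23 other listed genes of ceramide and sphingosine metabolism, 20 were tested, 10 of them called higher and 1 lower, and their median change was 0.13 (log2). SMPD1, the acid sphingomyelinase that makes ceramide in lysosomes, rose to 19.1 ± 0.758 RPKM with Nutlin-3, against 11.4 ± 0.719 RPKM with DMSO (limma adjusted p = 0.000657). ASAH1, the acid ceramidase of lysosomes, rose to 3.93 ± 0.0849 RPKM, against 2.47 ± 0.0820 RPKM with DMSO (limma adjusted p = 0.000234). CERK, the kinase that phosphorylates ceramide, fell to 86.3% of its DMSO level (limma adjusted p = 0.0136). The count of rises was 6 without any 1 of Nutlin-3 replicates 2 and 3 and DMSO replicate 3.

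ZMAT3 (ENSG00000172667), a zinc finger protein that binds AU-rich RNA and acts on splicing, had 4.65, 4.85 and 4.67 RPKM in Nutlin-3 replicates 1 to 3. In DMSO replicates 1 to 3 it had 1.117, 1.24 and 1.31 RPKM. The spread inside each group was small beside the gap, and the mean with Nutlin-3 was 3.87 times that with DMSO. The log2 fold change was 1.91 (SE 0.062, limma adjusted p = 0.000112), which placed ZMAT3 at rank 118 of the 22859 genes tested. Of 8 other proteins that bind AU-rich elements, none rose and 4 fell, with a median of -0.22. HNRNPD, which marks such RNAs for decay, fell to 9.40 ± 0.208 RPKM with Nutlin-3, against 14.8 ± 0.809 RPKM with DMSO (limma adjusted p = 0.000533). KHSRP, another decay factor, fell to 73.9% of its DMSO level (limma adjusted p = 0.0019). Without DMSO replicate 3, 1 of the 8 was called higher, and on reads 2 were called higher and 5 lower.

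TP53INP1 (ENSG00000164938) promotes the phosphorylation of p53 and also takes part in autophagy. It had 5.27, 5.43 and 5.55 RPKM in Nutlin-3 replicates 1 to 3, against 1.49, 1.69 and 1.68 RPKM in DMSO replicates 1 to 3. The groups were far apart, with a ratio of means of 3.35 and a log2 fold change of 1.72 (SE 0.057, limma adjusted p = 0.000123). Among 7 tested genes of a list of 8 partners, 4 rose and 1 fell. All 4 that rose belong to the ATG8 family of autophagosome proteins, with which TP53INP1 interacts. GABARAPL1 rose to 2.30 ± 0.0898 RPKM with Nutlin-3, against 1.25 ± 0.112 RPKM with DMSO (limma adjusted p = 0.000938). GABARAP rose 1.42-fold (limma adjusted p = 0.000234). However, it shares 30.5% of its exon length with AC120057.2 on the same strand and 25.2% with AC120057.3 on the opposite strand. HIPK2, a kinase that phosphorylates p53, was at 91.5% of its DMSO level (limma adjusted p = 0.0469), a call lost without any 1 of the 6 libraries (limma adjusted p from 0.0544 to 0.127).

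AEN (ENSG00000181026) is a nuclease that degrades nucleic acids during apoptosis. It had 4.798, 5.02 and 5.23 RPKM in Nutlin-3 replicates 1 to 3, against 2.42, 2.32 and 2.29 RPKM in DMSO replicates 1 to 3. The Nutlin-3 libraries were thus all about 2 times as high as the DMSO libraries, with a ratio of means of 2.14. The log2 fold change was 1.08 (SE 0.042, limma adjusted p = 0.000145). Its promoter window was the one that held a match with 2 mismatches.

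TRIAP1 (ENSG00000170855) is a small mitochondrial protein known to hold back apoptosis. It had 11.3, 12.2 and 11.7 RPKM in Nutlin-3 replicates 1 to 3, against 6.83, 6.00 and 6.51 RPKM in DMSO replicates 1 to 3. The groups did not overlap, and the ratio of means was 1.82 (log2 fold change 0.86, SE 0.057, limma adjusted p = 0.000435). Of 10 apoptosome genes and TRIAP1 partners, all tested, 1 rose and 3 fell. The initiator caspase gene CASP9 rose to 0.284 ± 0.0221 RPKM with Nutlin-3, against 0.206 ± 0.0182 RPKM with DMSO (limma adjusted p = 0.0184). APAF1, the scaffold of the apoptosome, fell to 0.433 ± 0.0124 RPKM with Nutlin-3, against 0.526 ± 0.0112 RPKM with DMSO (limma adjusted p = 0.00491). The CASP9 call was lost without any 1 of Nutlin-3 replicates 2 and 3 and DMSO replicate 2 (limma adjusted p from 0.0524 to 0.062).

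NINJ1 (ENSG00000131669) is a cell surface protein first known for adhesion, which assembles in the plasma membrane of dying cells and breaks it open. It had 5.36, 5.62 and 5.53 RPKM in Nutlin-3 replicates 1 to 3, against 3.62, 3.91 and 3.69 RPKM in DMSO replicates 1 to 3. The lowest Nutlin-3 library was above the highest DMSO library, with a ratio of means of 1.47 (log2 fold change 0.55, SE 0.039, limma adjusted p = 0.000526). Of 7 tested genes of a list of 8 for lytic cell death, 1 rose and 1 fell. GSDME, a pore-forming gasdermin, rose 1.17-fold (limma adjusted p = 0.00253), and the count of rises was 2 without DMSO replicate 1. MLKL, the pore-forming protein of necroptosis, was at 80.8% of its DMSO level (limma adjusted p = 0.044), a call lost without any 1 of the 6 libraries (limma adjusted p from 0.0645 to 0.113).

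CYFIP2 (ENSG00000055163) is a subunit of the WAVE complex, which drives branched actin, and binds the translation regulator FMRP. It had 0.607, 0.633 and 0.599 RPKM in Nutlin-3 replicates 1 to 3, against 0.150, 0.155 and 0.154 RPKM in DMSO replicates 1 to 3. The ratio of means was 3.996, the highest of the 10 genes. On the opposite strand, 5.95% of the CYFIP2 exon length is shared with other genes, and the counting strand is not given. The log2 fold change was 1.70 (SE 0.040, limma adjusted p = 9.44e-05), and 2.00 (SE 0.048, limma voom adjusted p = 1.53e-19) on reads. RPKM are low here although 600 to 2935 reads were recovered per library, since the length inferred behind its RPKM, introns included, is 129518 bases.

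Of 12 listed genes of the WAVE complex and CYFIP partners, 10 were tested, 1 of them called higher and 2 lower. Their median change was -0.057 (log2). ABI1, a subunit of the same complex, rose 1.18-fold (limma adjusted p = 0.00424). FMR1, which encodes FMRP, fell to 1.20 ± 0.0305 RPKM with Nutlin-3, against 1.502 ± 0.0306 RPKM with DMSO (limma adjusted p = 0.00155). EIF4E, the cap-binding protein of translation, fell to 80.8% of its DMSO level (limma adjusted p = 0.00276). Without DMSO replicate 1 the count of rises was 2. CYFIP1, the close relative of CYFIP2 and also on this list, was matched to no ID and is not analysed here.

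RNF144B (ENSG00000137393) is a ubiquitin ligase of the RING-between-RING class. Its rise was the smallest, with 0.292, 0.299 and 0.305 RPKM in Nutlin-3 replicates 1 to 3, against 0.248, 0.256 and 0.251 RPKM in DMSO replicates 1 to 3. The groups were close but did not overlap, with a ratio of means of 1.19 and a log2 fold change of 0.21 (SE 0.040, limma adjusted p = 0.013). The call was lost without Nutlin-3 replicate 2 (limma adjusted p = 0.0536) and without Nutlin-3 replicate 3 (limma adjusted p = 0.0516). On reads it passed, with a log2 fold change of 0.25 (limma voom adjusted p = 0.000171). Of 11 tested ligases and partners of this class from a list of 13, 3 rose and none fell. RNF14 and RBCK1 rose 1.22-fold and 1.21-fold (limma adjusted p = 0.0011 and 0.00406). On reads all 13 were tested, with 5 called higher and 1 lower.

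SUSD6 (ENSG00000100647) is a membrane protein with a sushi domain that, with TMEM127, brings the ubiquitin ligase WWP2 to MHC class I molecules. It had 0.235, 0.255 and 0.252 RPKM in Nutlin-3 replicates 1 to 3, against 0.150, 0.170 and 0.168 RPKM in DMSO replicates 1 to 3. The ratio of means was 1.52, and the groups did not overlap. The log2 fold change was 0.48 (SE 0.065, limma adjusted p = 0.00388), and 0.62 (SE 0.061, limma voom adjusted p = 9.58e-09) on reads. Of 6 partner genes tested, 4 rose and none fell. TMEM127 rose to 5.07 ± 0.0559 RPKM with Nutlin-3, against 3.83 ± 0.0743 RPKM with DMSO (limma adjusted p = 0.000361). The MHC class I gene HLA-C rose 1.31-fold (limma adjusted p = 0.00188), although reads of the near-identical class I genes may be split between them.

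The genes were ordered by the size of their change on reads, where a low RPKM does not shrink the value. CYFIP2, ZMAT3, ACER2 and TP53INP1 came first, with log2 fold changes of 2.00, 1.96, 1.83 and 1.75 on reads. The changes of neighbouring genes in this order were compared by the difference of their depth-scaled log2 reads in each library. Between the first 4 genes, neighbours differed by 0.043 to 0.13 (SE 0.055 to 0.19), and the differences in the Nutlin-3 and the DMSO libraries overlapped. ACER2, with 34 to 172 reads per library, lay between ZMAT3 and TP53INP1, so these were not compared directly on reads. On log2(RPKM + 0.05), where they were neighbours, ZMAT3 rose by 0.20 more than TP53INP1 (SE 0.035), without overlap. A gap of 0.65 (SE 0.085) then separated TP53INP1 from AEN, without overlap. AEN, PHLDA3 and TRIAP1 followed with 1.09, 0.95 and 0.86, SUSD6 and NINJ1 with 0.62 and 0.56, and RNF144B last with 0.25. PHLDA3 and TRIAP1 overlapped, as did SUSD6 and NINJ1, while NINJ1 and RNF144B did not (difference 0.31, SE 0.025). With 3 libraries against 3 the 2-sided exact permutation test cannot go below p = 0.1. It gave this value for each of the 4 of 9 neighbouring pairs on reads without overlap.

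**Figure D2:**
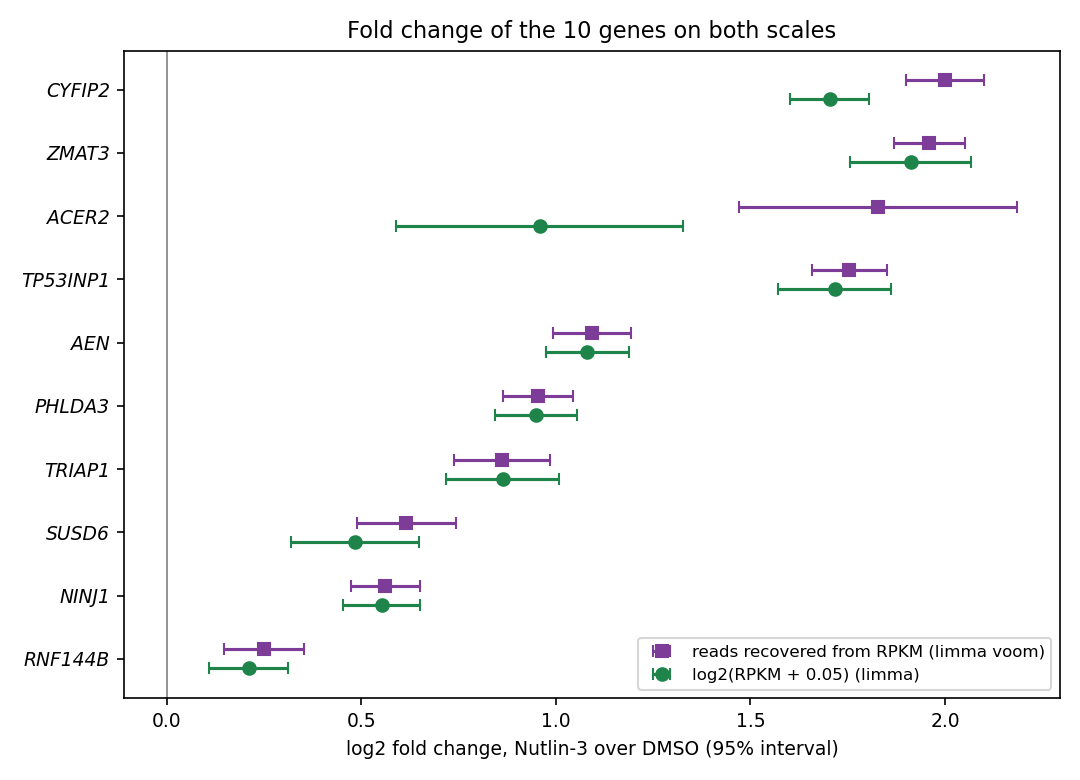
Log2 fold change of each gene, Nutlin-3 over DMSO (horizontal axis), with 95% intervals, from recovered reads (squares) and from log2(RPKM + 0.05) (circles). Both scales nearly coincide for PHLDA3, TRIAP1 and NINJ1, whereas ACER2 has 1.83 on reads and 0.96 on RPKM.

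Levels of different genes were compared per kilobase of exon, from the recovered reads and GENCODE 29 exon lengths. Whether intron reads were counted is not known, so levels of long genes such as ZMAT3 and CYFIP2 may include them. On this scale PHLDA3, ZMAT3 and NINJ1 reached similar levels with Nutlin-3, at 27.6 ± 1.42, 27.0 ± 0.630 and 26.6 ± 0.642 RPKM per exon length (SD, n = 3). With DMSO they were spread apart, at 14.3 ± 0.101, 6.97 ± 0.549 and 18.1 ± 0.739. ZMAT3 thus came up to the level of genes that stood higher without the drug. TP53INP1 reached 22.4 ± 0.583 with Nutlin-3, against 6.68 ± 0.469 with DMSO, and TRIAP1 reached 19.99 ± 0.734, against 10.96 ± 0.717. CYFIP2 passed RNF144B, with 7.56 ± 0.220 against 5.79 ± 0.130 with Nutlin-3, while with DMSO it was lower, at 1.89 ± 0.0334 against 4.87 ± 0.0760. ACER2 stayed the lowest, at 2.00 ± 0.380 with Nutlin-3 and 0.554 ± 0.0695 with DMSO. The length inferred behind the RPKM of PHLDA3 (3746 bases) and RNF144B (100327 bases) differs from the GENCODE 29 span (4855 and 81525 bases), so the levels of these 2 genes are less certain.

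**Figure D3:**
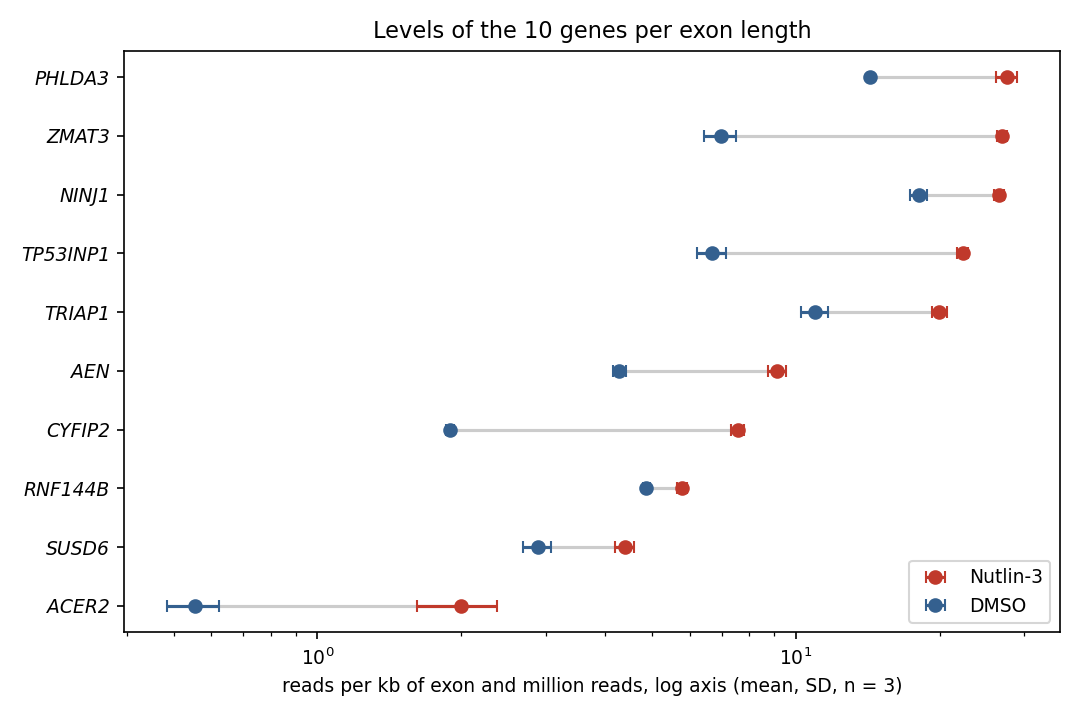
RPKM of each gene per exon length (horizontal log axis) with Nutlin-3 (red) and DMSO (blue); points are means and whiskers SD of 3 libraries, and the grey line joins the groups of 1 gene. PHLDA3, ZMAT3 and NINJ1 end close together with Nutlin-3, and CYFIP2 crosses RNF144B.

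Relatives of the genes were measured beside them. Of 14 relatives, 13 had an ID, 7 were tested, 3 rose and none fell. TP53INP2, an autophagy factor like TP53INP1, rose to 7.204 ± 0.0215 RPKM with Nutlin-3, against 4.48 ± 0.204 RPKM with DMSO (log2 fold change 0.68, limma adjusted p = 0.000273). PHLDA2, an imprinted relative of PHLDA3, rose to 18.95 ± 1.79 RPKM, against 13.6 ± 1.93 RPKM with DMSO (limma adjusted p = 0.0351). That call was lost without any 1 of the libraries other than DMSO replicate 3 (limma adjusted p from 0.0585 to 0.0968). ZMAT5, a protein of the minor spliceosome, rose 1.27-fold (limma adjusted p = 0.00998). PHLDA1 was not called, with 24.6 ± 1.37 RPKM with Nutlin-3 and 25.3 ± 0.966 RPKM with DMSO (limma adjusted p = 0.569), and neither were ZMAT2, ISG20L2 and ACER3 (limma adjusted p = 0.0754, 0.189 and 0.0874). Calls were gained by ACER3 on reads (log2 fold change -0.17, limma voom adjusted p = 0.00422), by PHLDA1 under quantile normalization (-0.13, limma adjusted p = 0.0294) and by ZMAT2 without DMSO replicate 1 (0.11, limma adjusted p = 0.0234).

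The difference between the change of a gene and that of its relative was measured in 7 pairs on log2(RPKM + 0.05). ZMAT3 rose by 1.83 more than ZMAT2 (SE 0.089) and by 1.61 more than ZMAT5 (SE 0.048). AEN rose by 1.20 more than ISG20L2 (SE 0.044), ACER2 by 1.10 more than ACER3 (SE 0.11) and TP53INP1 by 1.04 more than TP53INP2 (SE 0.036). PHLDA3 rose by 0.99 more than PHLDA1 (SE 0.034) and by 0.47 more than PHLDA2 (SE 0.12). On depth-scaled log2 reads, a scale added after the data were seen, ACER2 rose by 2.00 more than ACER3 (SE 0.18), the largest of the 7 differences on that scale. The within-library differences of the Nutlin-3 and DMSO groups did not overlap in any of the 7 pairs, on either scale. The exact permutation test (2-sided) returned p = 0.1 for every pair, which is its floor with 3 against 3 libraries, and 0.1 after Benjamini-Hochberg adjustment over the 7 pairs.

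The remaining 6 relatives were below the minimum mean of 0.05 RPKM. NINJ2 had 0 to 3 reads per library, ZMAT4 0 to 2, ZMAT1 and ACER1 4 to 12 each, RNF144A 14 to 24 and ISG20 21 to 43. In RPE1 cells NINJ1, RNF144B and AEN were therefore read far more often than NINJ2, RNF144A and ISG20 in both groups.

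**Figure D4:**
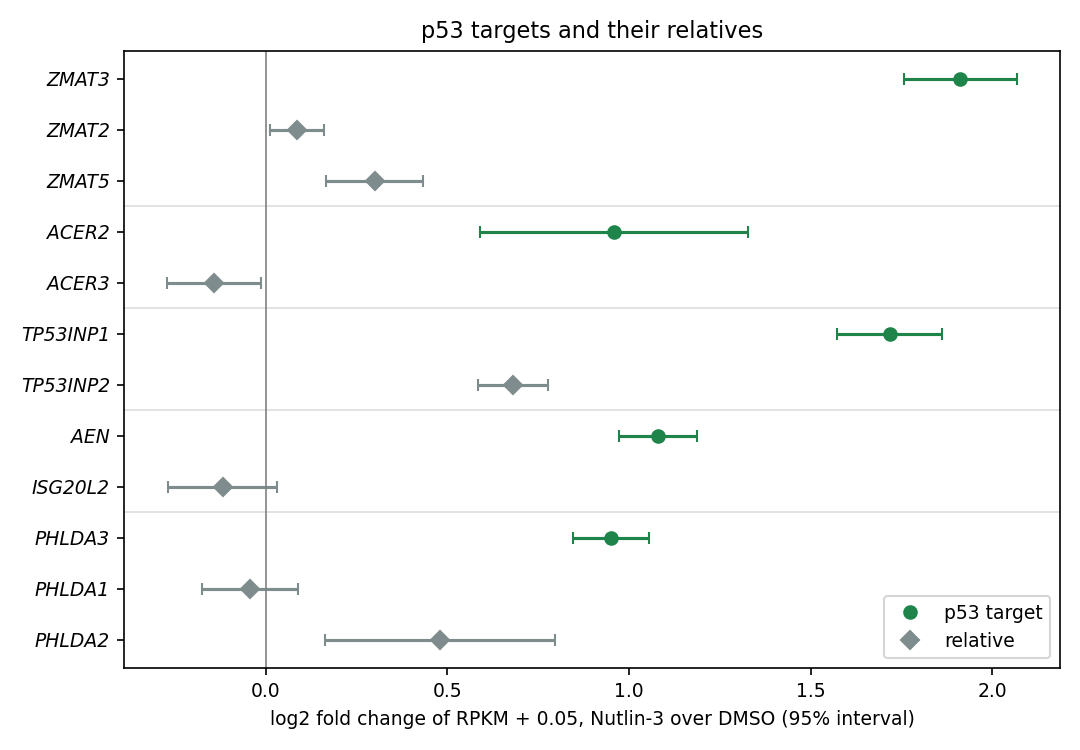
Log2 fold change of RPKM + 0.05, Nutlin-3 over DMSO (horizontal axis), with 95% intervals, for 5 p53 targets (circles) and the 7 tested relatives (diamonds), grouped by family. Each target lies to the right of its relatives, and TP53INP2 is the relative with the largest change.

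The 10 genes were also set beside other direct p53 targets. From a list of 30 others, 28 were tested, 25 of them called higher and 2 lower, and their median change was 1.18 (log2). Ordered by fold change on reads among these 38 genes, CYFIP2 was at place 5, ZMAT3 at 7 and RNF144B at 34. Above CYFIP2 stood CDKN1A (7.24-fold), the antiproliferative gene BTG2 (6.17-fold), the mitochondrial quality factor SPATA18 (6.10-fold) and the ferredoxin reductase gene FDXR (4.30-fold). The 2 that fell were the pro-apoptotic BCL2 family gene PMAIP1, at 67.8% of its DMSO level (limma adjusted p = 0.0046), and APAF1. GDF15 was below the minimum mean.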

How the data were processed

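RNA-seq libraries of RPE1 cells, 3 with Nutlin-3 and 3 with DMSO, were grouped by their titles. The authors deposited 1 RPKM value per gene and library. The submitters' processing notes list, with no role, TopHat2, edgeR, CASAVA 1.8.2 and hg19. The kit was stranded, per the labels' protocols. Counter, annotation and counting strand: not given in the sources used here. As no label says that replicates were separate cultures, the p-values cover the spread among libraries alone, possibly a technical one. Within groups, the chi-square per gene between libraries was 1.63 to 4.82, above sampling noise.

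RPKM times the GENCODE 29 gene span, introns included, gave whole reads (within 0.01) for 89.0% of low values, against 25.2% with exon length, so long genes have low RPKM. Reads were recovered from the span for 26921 genes and as the smallest whole numbers with the observed ratios for 9442. Above a minimum mean of 0.05 RPKM, limma 3.58.1 (R 4.3.3) was run on log2(RPKM + 0.05) (mean-variance trend, Benjamini-Hochberg adjustment, threshold 0.05, 2-sided), checked on simulated data. limma voom on recovered reads (mean of at least 10) was an alternative. The library sizes behind the RPKM were 30.4 to 35.8 M with Nutlin-3 and 29.8 to 42.3 M with DMSO. They were below the recovered reads in every Nutlin-3 library and above them in every DMSO library. Depth-scaled reads and limma voom used these sizes, and their effect on small changes was not tested. Folds are ratios of mean RPKM.

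The genes and lists were chosen with earlier results of these data known. Named genes are the 10 targets, their relatives, CDKN1A and MDM2, and up to 2 strongest rises and falls per list (4 for p53 targets). TP73 was added with its values known. Some genes that this rule names are not reported here. GENCODE 29 and a gene name table gave symbols for 52338 of 57773 IDs. Since GENCODE 29 uses another build than hg19, no gene coordinates are given, and promoter windows are on GRCh38.p14.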

Additional observations from a re-analysis of the deposited data

How the results depend on the processing

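The 10 genes kept their direction in all 152 combinations of a gene and an alternative that could be run, and their side of the threshold in 149. The exceptions were all RNF144B, with a log2 fold change of 0.21 (limma adjusted p = 0.0712) with the replicate block and values between 0.20 and 0.22 when 1 library was left out. A minimum mean of 0.5 RPKM, alone or with a pseudocount of 0.5, left 6 of the 10 genes, all 6 called, since it removes CYFIP2, ACER2, SUSD6 and RNF144B. A pseudocount of 0.5 lowered the log2 fold changes of CYFIP2, SUSD6, ACER2 and RNF144B to 0.77, 0.17, 0.19 and 0.088, still called. Same-numbered libraries did not deviate together (r from -0.025 to -0.013). This does not show that the libraries were unpaired, only that no effect of replicate number was seen. With the replicate block, 2479 genes fell, against 3791 without it, and ZMAT5, PHLPP1 and HIPK2 did not pass (limma adjusted p = 0.0600, 0.0944 and 0.141). Over the lists beside the 10 genes, 16 genes fell, 25 on recovered reads, and between 10 and 13 when 1 library was left out. For the other 36 named genes, 562 such combinations were run. None reversed direction with a call in either fit, while 36 lost and 3 gained a call. PHLDA1, not called in either fit, changed sign without Nutlin-3 replicate 1 (log2 fold change 0.0011, against -0.044). Among rises per list, ceramide genes numbered 5 with the block and 11 on reads, PI3K and AKT genes 4 on reads, and ligases 5 on reads. Falls on reads numbered 5 for PI3K and AKT and 4 for the WAVE complex and CYFIP partners. Few reads limit ACER2 most.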

Other observations

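TP73, a relative of p53 that TP53INP1 also binds, was below the minimum mean of 0.05 RPKM, so it was tested on recovered reads alone, as one of the listed partners of TP53INP1. It had 0.00378, 0.00167 and 0.00197 RPKM in Nutlin-3 replicates 1 to 3, against 0.0082, 0.00682 and 0.00811 RPKM in DMSO replicates 1 to 3. These values rest on only 10, 5 and 5 reads in the Nutlin-3 libraries and on 29, 17 and 22 reads in the DMSO libraries. On reads the log2 fold change was -1.67 (limma voom adjusted p = 0.000148).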
